A study of Mus musculus with 8 samples.

Results

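The 10 genes described here encode matricellular and adhesive matrix proteins: osteopontin (Spp1), SPARC (Sparc), SMOC1 (Smoc1), thrombospondins 1 and 2 (Thbs1, Thbs2), tenascin-C (Tnc), periostin (Postn), CYR61 (Cyr61, now Ccn1), CTGF (Ctgf, now Ccn2) and fibronectin (Fn1). They were taken by symbol from count tables that list 31053 genes, and each of the 10 was found once in every library. Transcripts were counted by QuantSeq, a method that sequences the tail end of each mRNA, in eyecups of untreated C57/Bl6 mice at postnatal day 11 (P11). The 8 libraries fall into 2 groups, 4 wild-type (Bbs8+/+) and 4 homozygous knockout (Bbs8-/-). Bbs8, listed as Ttc8, encodes a subunit of the BBSome, a complex that carries membrane proteins into and out of the primary cilium. The knockout was not restricted to the retinal pigment epithelium (RPE), so every cell type in the eyecup lacked Bbs8. Cornea, lens, retina and optic nerve had been taken off before RNA extraction, which leaves mainly the RPE with choroid and sclera. Markers of skeletal muscle, lens and photoreceptors were nonetheless counted in every library, so these libraries were not of those tissues alone.

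Matricellular proteins are secreted into the extracellular matrix but, unlike collagens, mainly act as signals there: they bind integrins, CD44 or syndecans on cells, bind growth factors and alter how firmly cells adhere. Many of them are made at high levels in development and wound repair and at low levels in resting tissue. In the back of the eye they are made by scleral and choroidal fibroblasts, vascular cells, macrophages and the RPE itself, and the sequencing of whole eyecups does not separate these sources. Fewer cells of a type and less RNA per cell cannot be told apart in such samples.

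Total gene counts ran from 1636725 to 2884983 per library, with group means of 2461009 in Bbs8+/+ and 1978883 in Bbs8-/- (two-sided exact permutation test, p = 0.0857, the smallest possible value being 0.0286). Ttc8 was lower in the knockout, from 18.6 ± 2.96 to 4.97 ± 3.27 CPM (counts scaled to a fixed library total, mean ± SD, n = 4), without overlap (edgeR quasi-likelihood, log2 fold change -1.95, Benjamini-Hochberg adjusted p = 2.75e-06). All 10 RPE markers were measured, with a summed level of 17651 to 18668 CPM in Bbs8+/+ and 19099 to 19439 CPM in Bbs8-/-. Fibroblast and sclera markers summed to 35665 to 37390 CPM in Bbs8+/+ and 28231 to 29369 CPM in Bbs8-/-, a sum carried largely by Col1a1 and Col1a2, and 4 of the 12 were called lower. Skeletal muscle markers summed to 3114 to 3279 CPM in wild-type and 3379 to 3568 CPM in knockout libraries. Lens markers summed to 222 to 264 CPM in Bbs8+/+ and 640 to 681 CPM in Bbs8-/-. Eif2s3y, Kdm5d, Uty and Ddx3y, all Y-linked, summed to 59.1 to 65.0 CPM in wild-type and 108 to 120 CPM in knockout libraries, while Xist went the other way, with 641 to 747 CPM in wild-type and 571 to 626 CPM in knockout libraries. The methods of the study take a single animal as the replicate, whereas Xist and Y-linked transcripts were counted together in every library. Whether a library held RNA of more than 1 animal was not tested, and n counts libraries throughout. Unique reads that fell in no gene made up 42.1% to 43.4% in Bbs8+/+ and 44.1% to 44.4% in Bbs8-/-, also without overlap. The part of these differences in the results below was not tested, except where a value is given.

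Of the 10 genes, all passed the filter on low counts, 2 were lower in Bbs8-/- (Spp1 and Smoc1), 1 was higher (Sparc) and 7 did not pass the test (edgeR quasi-likelihood, Benjamini-Hochberg adjusted p under 0.05). The same rule called 2.24% of the 13813 genes tested, 1.1% as higher and 1.14% as lower. The median log2 fold change of the 10 genes was -0.18, against -0.0041 for all genes tested, and 7 of the 10 had a negative value, against 50.5% of all genes. The values of the 4 libraries of each group did not overlap for 4 of the genes, 3 of them lower (Spp1, Smoc1 and Postn) and 1 higher (Sparc), where 7.38% of all tested genes had groups without overlap, 3.76% lower and 3.62% higher. The 10 genes therefore did not move as 1 group: the called changes went in both directions and differed in size.

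**Figure D1:**
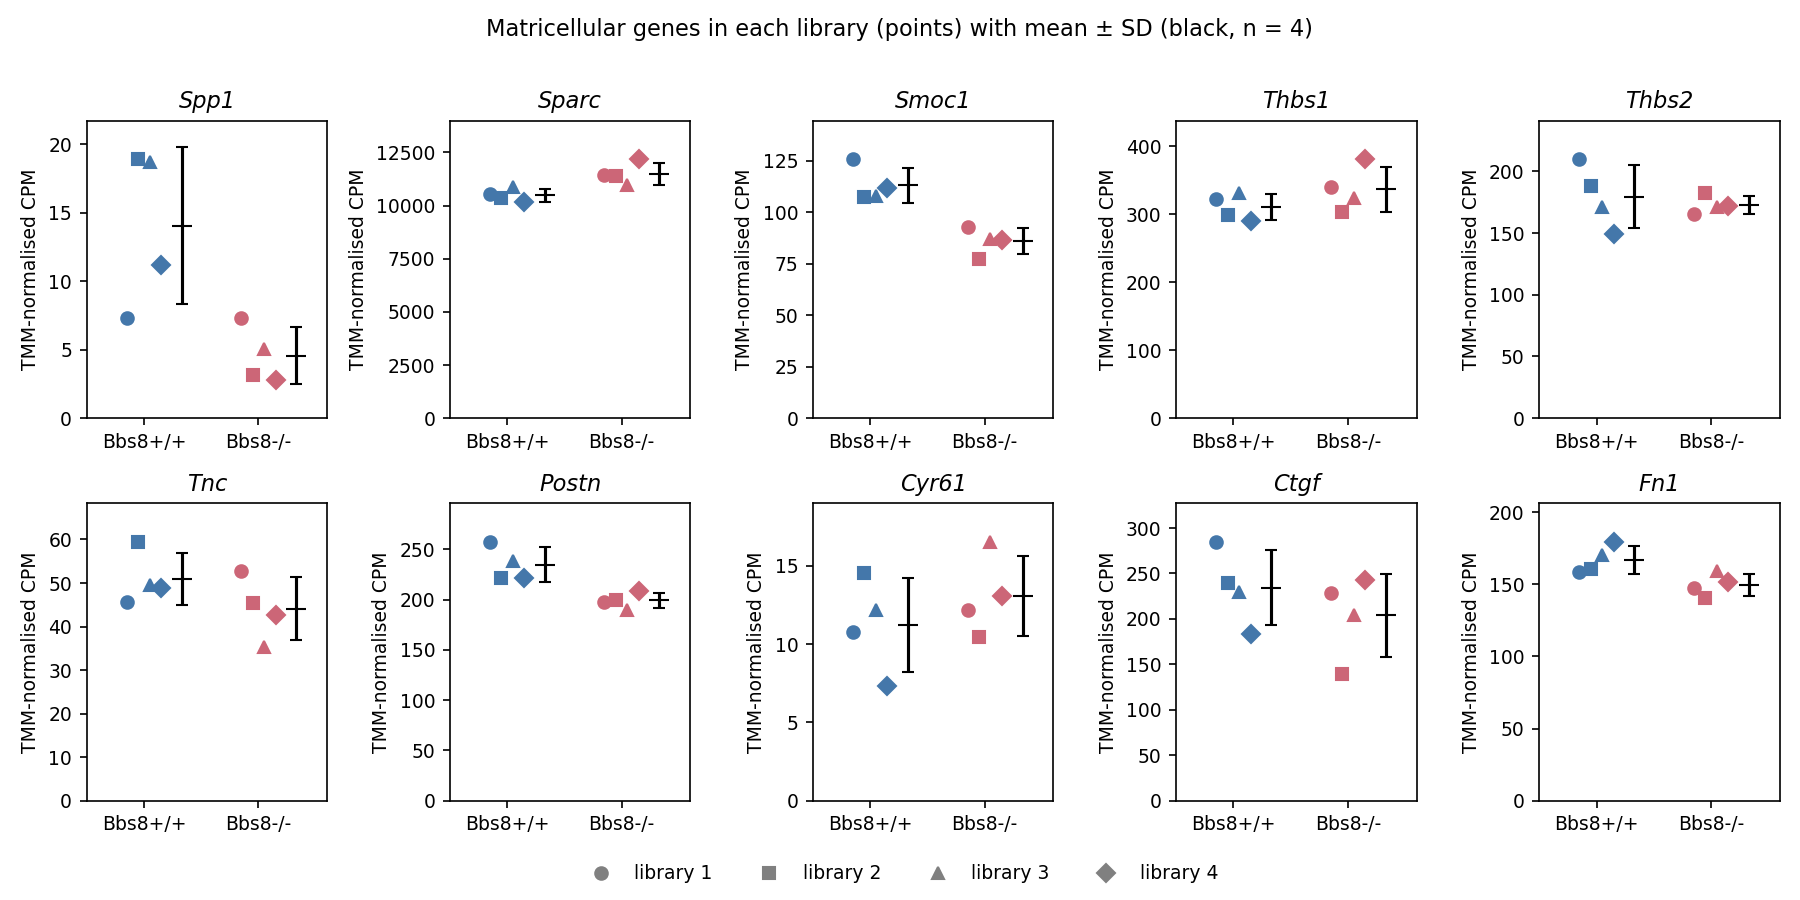
Level of each of the 10 genes in each library, in TMM-normalised CPM on linear axes that start at 0. Points are libraries (blue Bbs8+/+, red Bbs8-/-, marker shape the library number, not used as a pairing), and black bars are the mean ± SD (n = 4). The groups are apart for Spp1, Sparc, Smoc1 and Postn and overlap for the other genes, and the Spp1 groups are apart by only the distance from 7.29 to 7.34 CPM.

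Osteopontin, a secreted phosphoprotein that binds αv integrins and CD44 and is made by osteoblasts, macrophages and many injured epithelia, had the largest change of the 10. Spp1 (ENSMUSG00000029304, chr5:104435118-104441050, plus strand) stood at 7.34, 18.9, 18.7 and 11.2 CPM in Bbs8+/+ libraries 1 to 4, while Bbs8-/- libraries 1 to 4 had 7.29, 3.14, 5.05 and 2.81 CPM. These levels rest on few reads, 17, 48, 40 and 32 counts in Bbs8+/+ and 12, 6, 11 and 6 counts in Bbs8-/-. The lowest wild-type library and the highest knockout library were almost equal, and the other wild-type libraries were all above 11 CPM. The mean fell from 14.0 ± 5.73 to 4.57 ± 2.06 CPM (SD, n = 4), a log2 fold change of -1.63 ± 0.350 (SE) with a 95% interval from -2.32 to -0.94 (edgeR quasi-likelihood, Benjamini-Hochberg adjusted p = 0.000971). In linear terms Spp1 fell by 67.7%, and its interval ran from a fall of 80.0% to a fall of 47.8%. Its absolute log2 fold change stood above that of 99.1% of the tested genes. Leaving out each library in turn gave log2 fold changes from -1.90 to -1.44 and adjusted p-values from 0.00015 to 0.0262, and the values with all libraries thinned to the smallest total kept the call.

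The other cells known for osteopontin were examined through their markers. Of 12 macrophage markers, all measured, 1 was higher, Csf1r, the receptor for macrophage colony stimulating factor (254 CPM in Bbs8+/+ and 308 CPM in Bbs8-/-, log2 fold change 0.28, edgeR adjusted p = 0.0104), and none was lower. Their median log2 fold change was 0.19, and 2 of the 12 were negative. Summed, these markers ran from 1023 to 1063 CPM in wild-type and from 1029 to 1136 CPM in knockout libraries. That sum was carried largely by the most abundant of them, Gpnmb, which was among the negative ones. Gpnmb went from 650.0 ± 25.8 to 602 ± 30.3 CPM (SD, n = 4, log2 fold change -0.11, edgeR adjusted p = 0.383), so the sum says little about the other markers. The part of macrophages in the Spp1 result was not tested. Of 11 bone and cartilage markers, 7 could be tested and 1 was higher, Chad, a cartilage matrix protein (153 and 195 CPM, log2 fold change 0.36, edgeR adjusted p = 0.00338). The 7 tested markers had a median log2 fold change of 0.30, and 2 of them, Runx2 and Alpl, were negative. Runx2, the master transcription factor of osteoblasts, had 10.4 to 15.9 CPM in Bbs8+/+ and 3.66 to 9.11 CPM in Bbs8-/-, without overlap (log2 fold change -0.85, edgeR adjusted p = 0.165). Alpl, tissue-nonspecific alkaline phosphatase, had a log2 fold change of -0.33 (edgeR adjusted p = 0.365). Col2a1, the chain of cartilage collagen, went from 3.12 ± 1.11 to 8.38 ± 1.41 CPM (SD, n = 4), higher without overlap (log2 fold change 1.39, edgeR adjusted p = 0.0686). Sp7, the other osteoblast transcription factor of the list, Acan, the cartilage proteoglycan aggrecan, and Cnmd, chondromodulin, had log2 fold changes of 0.12, 0.30 and 0.36, none past the test. The defining bone genes Bglap and Ibsp, which encode osteocalcin and bone sialoprotein, had means under 1 CPM in both groups, and Matn1, a cartilage matrilin, had 0 counts in all 8 libraries. The part of bone or cartilage cells in the Spp1 result was not tested.

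The genes whose level followed that of Spp1 most closely over the 8 libraries, among 9042 genes with a mean of at least 10 CPM, were Acsl6 (Pearson r = 0.973), Tmf1 (0.968), Mob1a (0.952), Itm2a (0.951) and Pura (0.949). These values are a description over libraries that share 2 genotypes. None of the 5 genes passed the test between genotypes, and their log2 fold changes lay between -0.28 and -0.17, far smaller than that of Spp1.

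SPARC, a collagen-binding glycoprotein that guides collagen assembly and loosens cell contacts, was the 1 member that rose. Sparc (ENSMUSG00000018593, chr11:55394500-55423183, minus strand) had 10529, 10351, 10881 and 10154 CPM in Bbs8+/+ and 11435, 11402, 10956 and 12174 CPM in Bbs8-/-. Every knockout library was above every wild-type library, with the third library of each group closest to the other group. It took 1.01% to 1.19% of all gene counts in a library, so its counts were high and its spread small, with a coefficient of variation of 2.95% in Bbs8+/+ and 4.39% in Bbs8-/-. The mean rose from 10479 ± 309 to 11492 ± 505 CPM (SD, n = 4), a log2 fold change of 0.13 ± 0.0294 (SE) with a 95% interval from 0.08 to 0.19 (edgeR quasi-likelihood, Benjamini-Hochberg adjusted p = 0.00148). This is a rise of 9.67%, smaller than the median absolute log2 fold change of all tested genes, 0.19. The call was lost with the edgeR likelihood ratio test (adjusted p = 0.225), which gave the same fold change.

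Sparc is usually made together with fibrillar collagen, and here Sparc and type I collagen went in opposite directions. Among the 12 fibroblast and sclera markers, Col1a1 and Col1a2, the chains of type I collagen, were lower, from 11717 ± 134 to 8752 ± 327 CPM and from 15122 ± 684 to 10311 ± 269 CPM (log2 fold changes -0.42 and -0.55, edgeR adjusted p = 2.01e-25 and 1.62e-36). Col3a1 and Col5a1 were lower as well (-0.21 and -0.35), and none of the 12 was called higher. Not all of them were down, however: Dcn, decorin, went from 5894 ± 151 to 6261 ± 122 CPM (SD, n = 4), higher in every knockout library but not past the test (log2 fold change 0.09, edgeR adjusted p = 0.174), and Lum and Mfap5 had values of 0.12 and 0.08. As a ratio within each library, which needs no scaling between libraries, there were 39.2, 38.8, 41.5 and 36.8 Sparc counts per 100 Col1a1 and Col1a2 counts in Bbs8+/+ and 61.6, 60.1, 58.2 and 61.2 in Bbs8-/-. The ratio was higher in every knockout library, with a mean of 39.1 ± 1.92 against 60.3 ± 1.55 (SD, n = 4). It was chosen after the levels had been seen and is given as a description. The plot of Sparc beside collagen shows both facts, a small rise of Sparc and a larger fall of the collagen chains.

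**Figure D2:**
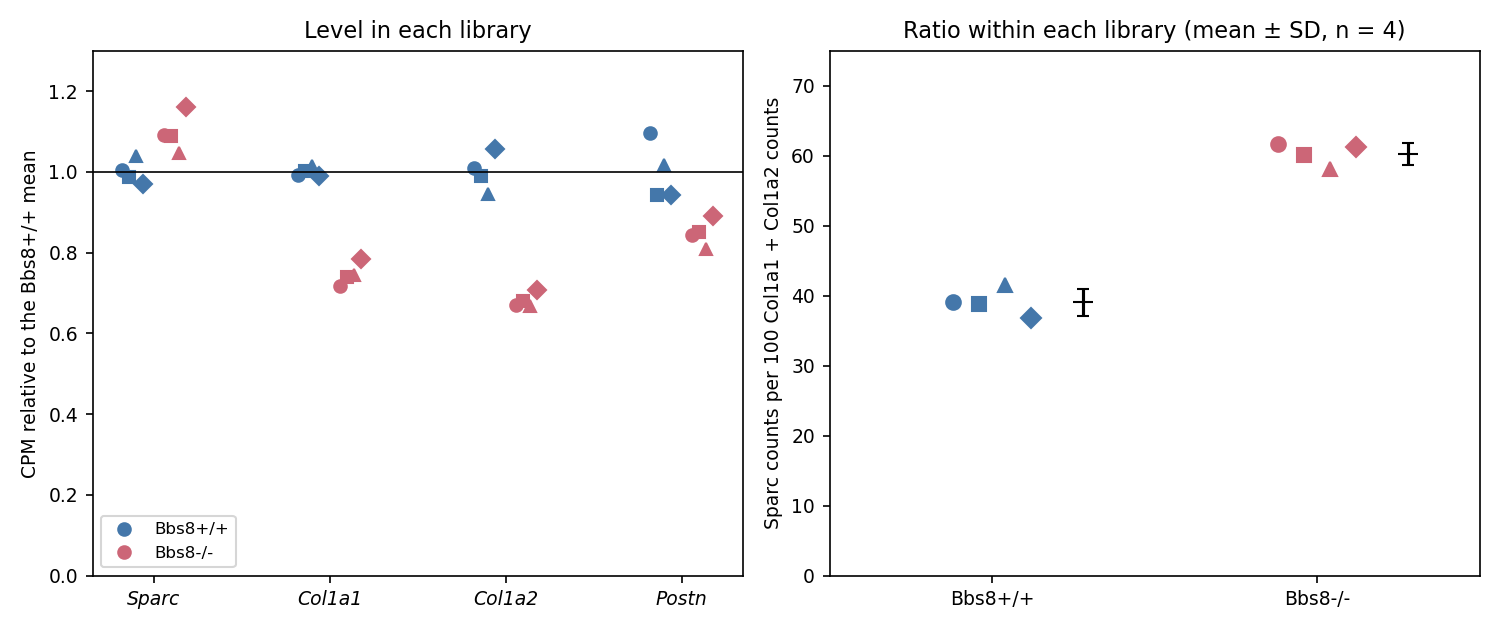
Left, levels of Sparc, Col1a1, Col1a2 and Postn in each library relative to the Bbs8+/+ mean of that gene (1, horizontal line). Right, Sparc counts per 100 counts of Col1a1 and Col1a2 in each library, with the mean ± SD (black, n = 4). Blue points are Bbs8+/+ and red points Bbs8-/- libraries, and in the right panel the 4 knockout libraries lie between 58.2 and 61.6 and the 4 wild-type libraries between 36.8 and 41.5.

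SMOC1, a calcium-binding relative of SPARC found in basement membranes and needed for eye development, was lower. Smoc1 (ENSMUSG00000021136, chr12:81026808-81186414, plus strand) had 125.6, 107.1, 107.6 and 111.5 CPM in Bbs8+/+ and 92.9, 77.4, 86.8 and 86.5 CPM in Bbs8-/-. The groups did not overlap, and the first wild-type library was the highest and the second knockout library the lowest. The mean fell from 113 ± 8.65 to 85.9 ± 6.40 CPM (SD, n = 4), a log2 fold change of -0.40 ± 0.105 (SE) with a 95% interval from -0.60 to -0.19 (edgeR quasi-likelihood, Benjamini-Hochberg adjusted p = 0.0159). Without the first wild-type library the adjusted p was 0.107 (log2 fold change -0.34), and without the second knockout library it was 0.0891 (-0.35), so the call rests on these libraries. Smoc1 lies on the chromosome of Ttc8, chromosome 12, with 17.73 Mb between them. Whether the knockout chromosome carries sequence of another strain there was not tested.

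Smoc2, the close relative of Smoc1, is named here after its values were seen. It had 43.4 to 54.0 CPM in Bbs8+/+ and 23.1 to 39.0 CPM in Bbs8-/-, without overlap, and a log2 fold change of -0.53 with an adjusted p of 0.0526 by edgeR, just short of a call. Sparcl1, the nearest relative of Sparc, went from 564 ± 25.4 to 524 ± 16.4 CPM (SD, n = 4) and did not pass the test (log2 fold change -0.11, edgeR adjusted p = 0.446). Within the SPARC family, therefore, 1 gene was called higher and 1 lower.

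Periostin, an integrin ligand made by fibroblasts that crosslinks collagen, came closest to the threshold among the remaining members. Postn (chr3:54361109-54391037, plus strand) had 257.6, 221.7, 239.0 and 221.3 CPM in Bbs8+/+ and 198.0, 199.8, 190.2 and 209.1 CPM in Bbs8-/-. All knockout libraries were below all wild-type libraries, but the change did not pass the test: the log2 fold change was -0.24 ± 0.0766 (SE), with a 95% interval from -0.39 to -0.08 and an adjusted p of 0.0842 by edgeR. Per 100 counts of Col1a1 and Col1a2, Postn was higher in the knockout, at 1.05 ± 0.0249 against 0.876 ± 0.0718 (SD, n = 4), again without overlap, so its direction depends on whether it is set against all genes or against type I collagen.

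Thbs1 and Thbs2 encode secreted trimers that bind CD36, CD47 and integrins and restrain new vessels, and thrombospondin 1 also activates latent TGF-β. Thbs1 (chr2:118111876-118127133, plus strand) had 290 to 331 CPM in Bbs8+/+ and 303 to 381 CPM in Bbs8-/-, and Thbs2 (chr17:14665500-14694235, minus strand) had 149 to 210 CPM and 165 to 183 CPM. Both overlapped between the groups, with log2 fold changes of 0.12 (95% interval -0.02 to 0.26) and -0.05 (-0.22 to 0.12). Neither passed the test (edgeR adjusted p = 0.474 and 0.868), and the far ends of the intervals were a rise of Thbs1 by 19.4% and, for Thbs2, a level that fell by 14.2%. Thbs2 varied more among the wild-type libraries than among the knockout libraries, with coefficients of variation of 14.3% and 4.17%.

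Fibronectin and tenascin-C are large adhesive glycoproteins, the first a general scaffold for integrin attachment and the second known for weakening it. Fn1 (chr1:71585520-71653200, minus strand) went from 167 ± 9.72 to 150 ± 7.83 CPM and Tnc (chr4:63959785-64047015, minus strand) from 50.9 ± 5.93 to 44.1 ± 7.24 CPM (SD, n = 4). The groups overlapped for both genes. Their log2 fold changes were -0.16 (95% interval -0.33 to 0.01) and -0.22 (-0.51 to 0.07), with adjusted p-values of 0.432 and 0.565 by edgeR.

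CYR61 and CTGF belong to the CCN family, whose genes are switched on within minutes to hours by serum, stretch and YAP with TEAD factors, and both bind integrins and heparan sulphate. Cyr61 (chr3:145646976-145649981, minus strand) was measured on few reads, with 10.8, 14.6, 12.2 and 7.34 CPM in Bbs8+/+ and 12.1, 10.5, 16.5 and 13.1 CPM in Bbs8-/-. The groups overlapped, and the log2 fold change of 0.24 had a 95% interval from -0.32 to 0.79 (edgeR adjusted p = 0.81), so neither a fall by 20.1% nor a rise by 73.4% lay outside it. Ctgf (chr10:24595442-24598683, plus strand) had 284.8, 239.0, 230.2 and 183.9 CPM in Bbs8+/+ and 229.0, 139.1, 204.4 and 242.7 CPM in Bbs8-/-. The lowest value belonged to a knockout library and the highest to a wild-type library, with the rest interleaved. Its log2 fold change was -0.20 (95% interval -0.37 to -0.02, edgeR adjusted p = 0.297). The coefficients of variation were 17.6% in Bbs8+/+ and 22.6% in Bbs8-/-. The interval rests on a variance moderated over all genes and does not measure this spread. DESeq2 gave an adjusted p of 0.769 (Wald test).

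**Figure D3:**
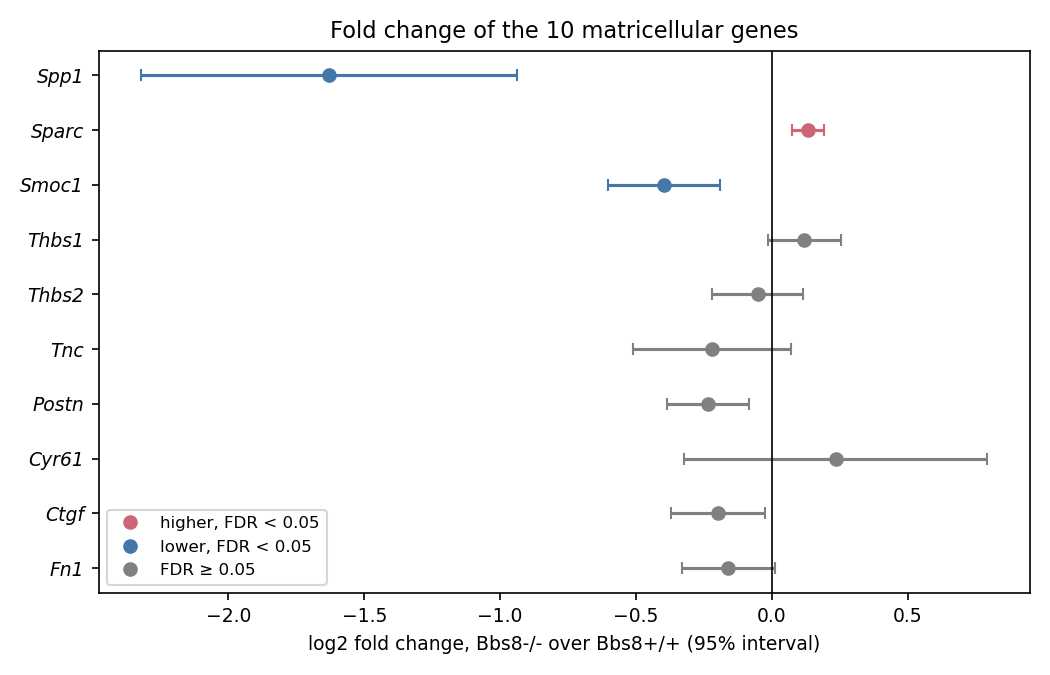
Log2 fold change of Bbs8-/- over Bbs8+/+ for the 10 genes with its 95% interval (horizontal bars, not adjusted for the number of genes), from the edgeR fit over all genes. Blue points were lower, red points higher and grey points did not pass an adjusted p of 0.05. Spp1 is far to the left at -1.63 with the widest called interval, and Sparc has the narrowest interval of the 10 at 0.13.

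The plot of fold changes shows how the precision differs between the genes: the SE was 0.0294 for Sparc, the gene with the most counts, and 0.350 and 0.282 for Spp1 and Cyr61, the genes with the fewest. The 9 genes other than Sparc together went from 1315 ± 90.1 to 1210 ± 85.2 CPM (SD, n = 4), with overlap.

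Promoters hold the sequences at which transcription of a gene begins, and those of 3 members are shown: Spp1 for its change, Postn as another member that was lower without overlap, and Cyr61 as a textbook YAP and TEAD target that was not called. They are the 250 bases before the RefSeq transcription start nearest the annotated gene start (build mm10, GRCm38), read 5′ to 3′ on the gene's strand, and lie at chr5:104434861-104435110 on the plus strand for Spp1, chr3:54360857-54361106 on the plus strand for Postn and chr3:145649986-145650235 on the minus strand for Cyr61. Capitals mark matches, on either strand, to TATAAA (the TATA box), GGAATG (the TEAD core), GGGCGG (the GC box), CACGTG and CATGTG (E-boxes) and TGACTCA (AP-1).
Spp1: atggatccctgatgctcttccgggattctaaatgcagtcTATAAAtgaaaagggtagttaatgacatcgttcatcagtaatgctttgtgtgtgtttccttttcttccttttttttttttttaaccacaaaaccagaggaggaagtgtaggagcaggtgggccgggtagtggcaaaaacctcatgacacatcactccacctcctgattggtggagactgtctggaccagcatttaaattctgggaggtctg
Postn: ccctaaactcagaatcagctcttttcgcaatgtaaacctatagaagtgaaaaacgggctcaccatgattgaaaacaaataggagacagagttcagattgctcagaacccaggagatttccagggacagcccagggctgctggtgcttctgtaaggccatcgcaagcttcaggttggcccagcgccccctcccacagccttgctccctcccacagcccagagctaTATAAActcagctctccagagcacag
Cyr61: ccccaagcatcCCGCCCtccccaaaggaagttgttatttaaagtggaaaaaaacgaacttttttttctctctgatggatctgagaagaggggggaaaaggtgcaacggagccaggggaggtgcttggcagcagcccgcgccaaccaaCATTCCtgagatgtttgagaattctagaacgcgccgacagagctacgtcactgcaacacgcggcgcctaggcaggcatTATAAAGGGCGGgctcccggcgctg
The Spp1 window held 1 match, TATAAA beginning 211 bases before the start, and the Postn window held TATAAA 26 bases before the start. In the Cyr61 window TATAAA began 25 bases before the start and adjoined GGGCGG at 19 bases, with GGAATG on the other strand at 103 bases and a second GGGCGG on the other strand at 239 bases. Among 32851 RefSeq windows of this length, 12.4% held TATAAA, 12.6% GGAATG, 32.7% GGGCGG, 6.02% CACGTG, 12.3% CATGTG and 4.46% TGACTCA. The matches are a description of these windows.

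The wider group of matricellular genes gave 1 call. Of 24 further genes of this kind, 18 were measured well enough to test, 1 was lower and none was higher, against 2.24% of all genes, and their median log2 fold change was -0.10. The called gene was Igfbp7, a secreted binder of insulin-like growth factors found around vessels, which went from 456 ± 47.0 to 367 ± 32.4 CPM (SD, n = 4, log2 fold change -0.32, edgeR adjusted p = 0.000502). Its groups overlapped, with 389 CPM in the lowest wild-type library and 411 CPM in the highest knockout library. The most abundant of the others, Fstl1, Sparcl1, Thbs4 and Spock1, had log2 fold changes of 0.11, -0.11, -0.13 and 0.13, none past the test. Mepe and Dspp, which like Spp1 belong to the SIBLING family of bone and tooth proteins, had 0 counts in all 8 libraries.

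Receptors of these proteins were measured in the same fit. Of 19 integrins, syndecans and other receptors, all tested, 1 was lower and none was higher, where 2.24% of all genes tested were called. Their median log2 fold change was -0.08. The lower one was Sdc3, a heparan sulphate proteoglycan of the cell surface, at 53.1, 39.4, 47.7 and 51.4 CPM in Bbs8+/+ and 23.7, 31.4, 34.0 and 30.4 CPM in Bbs8-/-, without overlap (log2 fold change -0.67 ± 0.162 SE, edgeR adjusted p = 0.00571). Without the first knockout library its adjusted p was 0.0568. The receptors known for osteopontin did not pass the test: Itgav had a log2 fold change of 0.23, Itgb3 of -0.31 and Cd44 of -0.15 (edgeR adjusted p = 0.262, 0.716 and 0.77). Itgav was higher in every knockout library, at 94.1 to 109 CPM in Bbs8+/+ and 112 to 130.2 CPM in Bbs8-/-, and the other two overlapped. The most abundant receptors, Itgb1, Itgb8, Lrp1 and Sdc4, had values from -0.13 to 0.10.

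**Figure D4:**
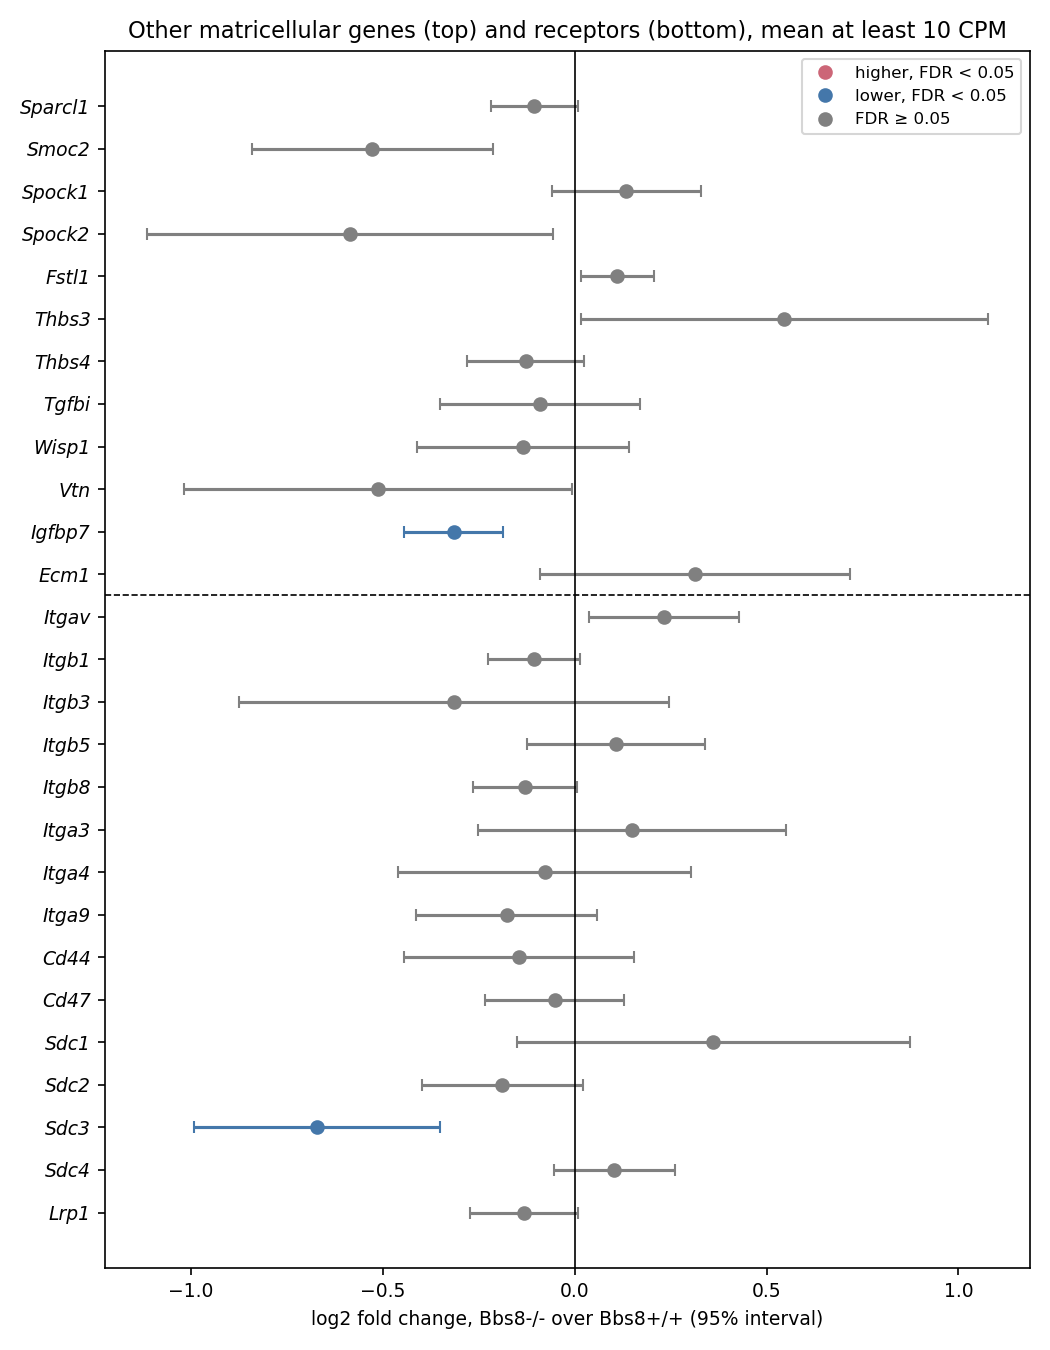
Log2 fold change of Bbs8-/- over Bbs8+/+ with its 95% interval for further matricellular genes (above the dashed line) and receptors (below it) with a mean of at least 10 CPM. Blue points were lower at an adjusted p under 0.05 and grey points did not pass. Igfbp7 at -0.32 and Sdc3 at -0.67 are the blue points, and most intervals of the other genes include 0.

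In this plot Spock2, Vtn and Thbs3 lie farther from 0 than Igfbp7 but have wider intervals, and none of them passed. Among 20 genes of the YAP, TEAD and SRF pathway, most of them regulators that act upstream of Cyr61 and Ctgf, all were tested and none was called by edgeR, 4 having an unadjusted p under 0.05, where 13.0% of all genes did. The likelihood ratio test called none of the 20 either, and DESeq2 called none of the 13 to which it gave an adjusted p. Ankrd1, a YAP and TEAD target like Cyr61 and Ctgf, had 4.32 to 9.79 CPM in Bbs8+/+ and 7.90 to 12.9 CPM in Bbs8-/- and the largest absolute log2 fold change of the list, 0.65 (95% interval -0.01 to 1.31, edgeR adjusted p = 0.399). Srf, the factor that gives serum response genes their name, had 29.7 to 34.5 CPM in Bbs8+/+ and 21.5 to 26.7 CPM in Bbs8-/-, lower without overlap (log2 fold change -0.47, 95% interval -0.84 to -0.10, edgeR adjusted p = 0.217). Yap1 had a log2 fold change of -0.29 (95% interval -0.53 to -0.06, edgeR adjusted p = 0.223). Amotl1, Tead1, Wwtr1 and Stk4, the most abundant, had log2 fold changes of -0.12, 0.16, 0.01 and 0.25.

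The cell types that could supply these genes moved as follows, where 1.1% of all genes tested were called higher and 1.14% lower. None of 8 endothelial markers was called, and their sum was 755 to 789 CPM in Bbs8+/+ and 721 to 814 CPM in Bbs8-/-. Of 8 pericyte and smooth muscle markers 2 were lower, Rgs5 and Notch3 (log2 fold changes -0.26 and -0.65), and the sum was 1296 to 1330 CPM against 1127 to 1212 CPM. Of 10 RPE markers 1 was higher, Otx2, a transcription factor of RPE and photoreceptors (0.48), whereas 7 of 10 melanocyte and pigment genes were lower, with a sum of 14328 to 15006 CPM against 11897 to 12446 CPM. Lens crystallins were higher, with 12 of 18 tested lens genes called. The share of each member that came from each cell type was not tested.

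The plot of alternative settings shows how far these values depend on the processing and on single libraries. The fold changes of Spp1, Sparc and Smoc1 kept their sign in every setting that gave a value, and those of the 7 other genes did so too except Thbs2, which was 0.03 without the first wild-type library. Some fold changes that had not passed the test moved by more than 1.5 times: Ctgf was -0.05 without the second knockout library, -0.09 without the first wild-type library and -0.30 without the fourth wild-type library (edgeR adjusted p = 0.059), and Cyr61 was 0.07 without the fourth and 0.40 without the second wild-type library, 0.10 without the third knockout library and 0.08 with the counts thinned to the smallest total. Thbs2, near 0 throughout, ran from -0.13 to 0.03 with 1 library left out. Thbs1 was 0.05 without the fourth knockout library, and Tnc was -0.12 without the third knockout library and -0.13 without the second wild-type library. None of these passed the test in any setting that gave an adjusted p.

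**Figure D5:**
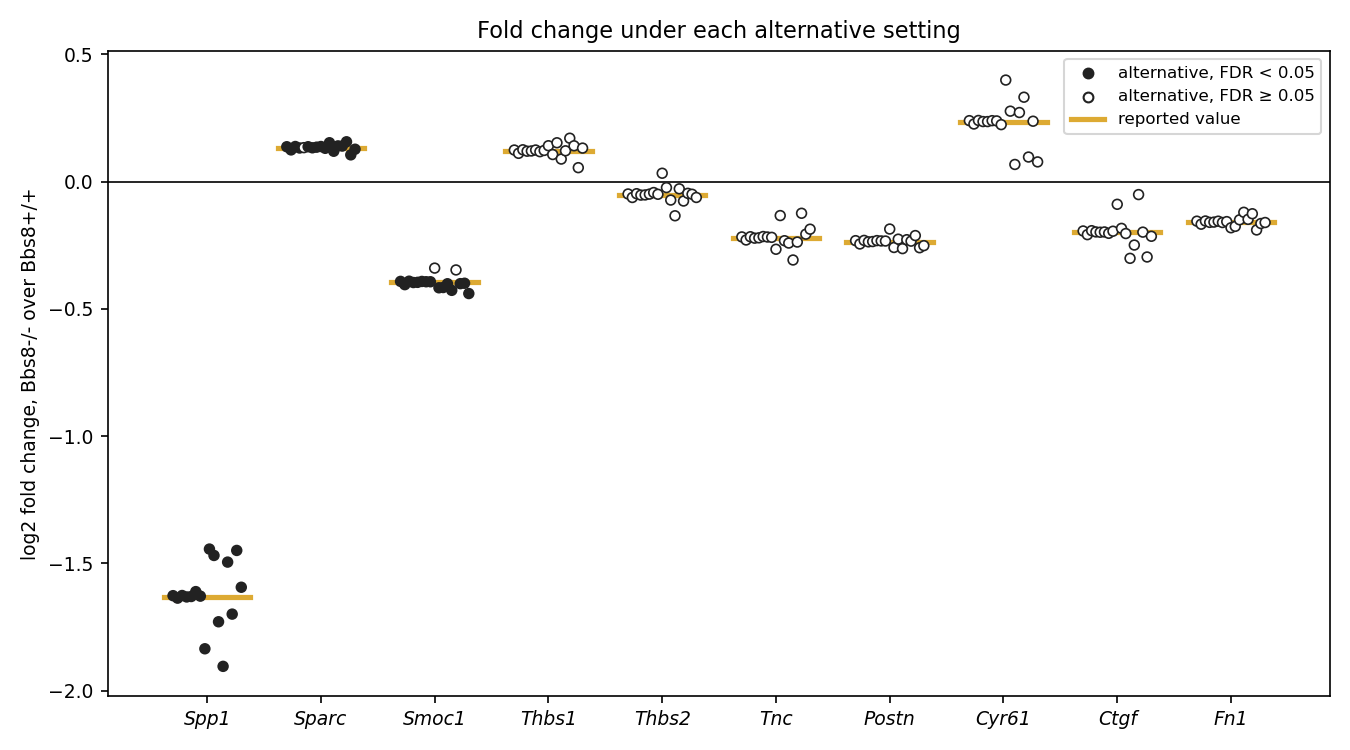
Log2 fold change of each of the 10 genes under the alternative settings (circles, filled where the adjusted p was under 0.05) beside the reported value (yellow line). Spp1 stays between -1.90 and -1.44 with all circles filled, Sparc has 1 open circle and Smoc1 has 2.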

How the data were processed

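RNA of 4 Bbs8+/+ and 4 Bbs8-/- P11 eyecup samples, labelled as separate biological replicates, was sequenced as QuantSeq 3′ libraries in single-end mode. The authors trimmed the reads, aligned them to mm10 with STAR and counted them per gene with htseq-count, and deposited raw counts per gene. Whether counting used strand is not given in the sources used here. Rows for reads outside genes, ambiguous or not unique, were left out of library sizes; reads without a gene are given as a percent of unique reads, whether assigned to a gene, ambiguous or without one.

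From the counts, edgeR 4.0.16 (R 4.3.3) was fitted to genes reaching 1 CPM in 4 or more libraries, with TMM scaling and the quasi-likelihood F test, two-sided, and Benjamini-Hochberg adjustment over 13813 genes at 0.05. CPM values use TMM-scaled library sizes. The SE is the fold change over the square root of F. F uses a variance moderated over all genes, so the SE and the interval do not measure the spread of a gene's own libraries alone. No p was adjusted over the 10 genes alone. On simulated counts for this comparison (13567 genes), the fit recovered 18 of 60 changes of 0.5, 36 of 64 of 1 and 57 of 67 of 2 (absolute log2), with 5 false among 116 calls. The simulation drew each library independently from dispersions estimated on these data. It therefore cannot show errors that come from effects shared between libraries. No 2 libraries were identical, and all pairs within a group differed beyond sampling noise (mean chi-square per gene 1.87 to 3.08).

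The members and lists were chosen with earlier results of these data known. Named genes are the 10 members, Ttc8, the called and the 4 most abundant genes of each related list, called or zero markers, and the 5 genes most like Spp1; Smoc2, Nov, Spock2, Vtn, Thbs3, Itgav, Itgb3, Cd44, Yap1, Srf, Ankrd1, Runx2, Alpl, Col2a1, Sp7, Acan, Cnmd, Dcn, Lum, Mfap5 and Gpnmb were named after their values were seen. Further lists were surface epithelium (Krt15, Krt13 and Krt6a lower of 3 tested, Krt14 and Krt17 at 0) and skeletal muscle (Myh8 higher, of 12). Positions are from GENCODE M21 (mm10, GRCm38), which held 31011 of the 31053 gene IDs. RefSeq windows were used where they ended near the annotated start, at most 27 bases from it, the Sparc window lay 3103 bases from it and was not used, and the 4 members Smoc1, Thbs1, Ctgf and Fn1 had none. Alternatives were 17 in number: RLE, total counts, filterByExpr, no filter, the likelihood ratio test, DESeq2 1.42.0, a replicate block, library sizes without Gm42418 and mitochondrial genes, each of 8 libraries left out, and thinning, which was added after seeing the data.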

Additional observations from a re-analysis of the deposited data

How the results depend on the processing

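Of 251 fold changes recomputed for 15 genes under 17 alternatives, 246 kept their direction and their side of the threshold, 4 kept the direction but passed it no longer and 1 changed sign. Sparc gave 0.13 with an adjusted p of 0.225 under the likelihood ratio test, so 0 members were then higher. DESeq2 gave no adjusted p for Spp1 (log2 fold change -1.63, unadjusted p = 8.47e-05) or Nr4a3, so it counts 1 member lower and 1 immediate early gene called; its independent filtering left 7386 genes adjusted. Among other matricellular genes 2 were called with total counts only, with filterByExpr and with the likelihood ratio test. With each library left out in turn, 1 to 2 members were lower, 1 to 2 other matricellular genes and 0 to 1 receptors were called, Smoc1 ranged from -0.43 to -0.34 and Thbs2 from -0.13 to 0.033, where it turned positive without the first wild-type library. The number of genes called ran from 114 to 172 higher and from 105 to 150 lower in these runs, against 152 and 157. Same-numbered libraries of the 2 groups showed no large shared deviation (r from -0.07 to 0.01 over 5115 genes). Such values cannot exclude a small shared effect, so whether the numbers pair the libraries is not known. The paper calls controls and mutants littermates, and the labels do not say what the numbers stand for. A replicate block gave 134 higher and 129 lower genes with the same calls for the members. Depth limits Spp1 and Cyr61 most, since 3 counts in 1 library amount to 1.04 to 1.83 CPM. The cause of these shifts was not tested.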

Other observations

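Immediate early genes respond to handling of tissue within minutes and share inducers with Cyr61 and Ctgf, and most did not pass the test. Of 15 tested, 1 was higher and 1 lower, where 1.1% of all genes tested were called higher and 1.14% lower. Ier3, a stress-induced survival factor, went from 31.1 ± 4.28 to 53.9 ± 8.39 CPM (SD, n = 4), without overlap (log2 fold change 0.80, edgeR adjusted p = 0.00018). Nr4a3, an orphan nuclear receptor, went from 19.9 ± 1.49 to 5.70 ± 2.00 CPM, also without overlap (log2 fold change -1.79, edgeR adjusted p = 2.96e-06). The most abundant of the list other than these, Klf4, Jun, Egr1 and Nr4a2, had log2 fold changes of -0.17, -0.23, 0.37 and -0.08. All 15 listed genes, Ier3 and Nr4a3 included, summed to 265 to 288 CPM in Bbs8+/+ and 269 to 295 CPM in Bbs8-/-.

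Nov, the CCN family member also called Ccn3 and named here after its values were seen, had 11.2 to 14.2 CPM in Bbs8+/+ and 4.18 to 9.72 CPM in Bbs8-/-. The groups did not overlap, and the log2 fold change of -0.86 did not pass the test (edgeR adjusted p = 0.165). There were 1.75 ± 0.219 Thbs1 counts per Thbs2 count in wild-type and 1.95 ± 0.236 in knockout libraries (SD, n = 4), with overlap.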
